A study of Mus musculus with 6 samples.

Results

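The 40 genes described here belong to a pair of linked stress programmes of the cell: 24 take part in protein folding, quality control and signalling in the endoplasmic reticulum (ER), and 16 encode the transcription factor ATF4, its close partners and its targets. They were picked by symbol from a table of 15796 mouse genes. Of the 40, 39 were listed there. Derl3, an ER membrane protein of the degradation pathway, had no expression value here and enters only the promoter search. Of the 39, 36 reached a mean of 1 FPKM (fragments per kilobase of transcript scaled to the depth of the library, a level per length) over the 6 libraries and were tested, while Atf3, Cth and Gdf15 lay below it.

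The libraries came from MC3T3-E1, a mouse cell line of the pre-osteoblast stage. The 3 control libraries came from cells that received an EGFP plasmid (their genotype is labelled WT), and the 3 overexpression libraries from cells that received an Hsd11b1 plasmid. All 6 were given 11-DHC, an inactive steroid, and the product of Hsd11b1 reduces it to corticosterone, the active glucocorticoid of rodents. No library without 11-DHC was among the 6, so the enzyme's action on the steroid and any other effect of the plasmid cannot be told apart. The sources used here do not give the promoter on the plasmid, the 11-DHC dose or the exposure time.

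ER-resident chaperones fold secreted proteins, and bone-forming cells secrete large amounts of collagen. When unfolded proteins build up, the sensors IRE1, PERK and ATF6 start the unfolded protein response: IRE1 splices Xbp1 mRNA, ATF6 is cleaved into a transcription factor, and both raise chaperones and the machinery of ER-associated degradation (ERAD). PERK phosphorylates the initiation factor eIF2alpha, which slows translation in general while it favours that of ATF4. Other eIF2alpha kinases, which respond to amino acid shortage, viral RNA or haem shortage, reach ATF4 without the ER, so that ATF4 targets can move apart from ER chaperones.

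Of the 36 tested genes, 4 passed the test, all of them higher with Hsd11b1: Vldlr, Ppp1r15a, Trib3 and Nupr1, which lie on the ATF4 side. None of the 23 tested ER genes passed, and no gene on either side was called lower. The test was limma on log2(FPKM + 1) with Benjamini-Hochberg adjustment over 13120 genes, in which 12.1% of all genes were called, 6.22% higher and 5.84% lower. The 4 calls are 11.1% of the members tested, close to that background of 12.1%. On the ATF4 side 4 of 13 tested genes were called (30.8%). The members were chosen with earlier results of these data known, so that share is no evidence of enrichment. The median log2 difference was 0.06 over the ER genes and 0.16 over the ATF4 genes, against -0.01 over all genes tested. Of the 36 genes, 27 had a positive difference (75.0%), as had 46.7% of all genes, and the median over the 36 was 0.10.

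**Figure D1:**
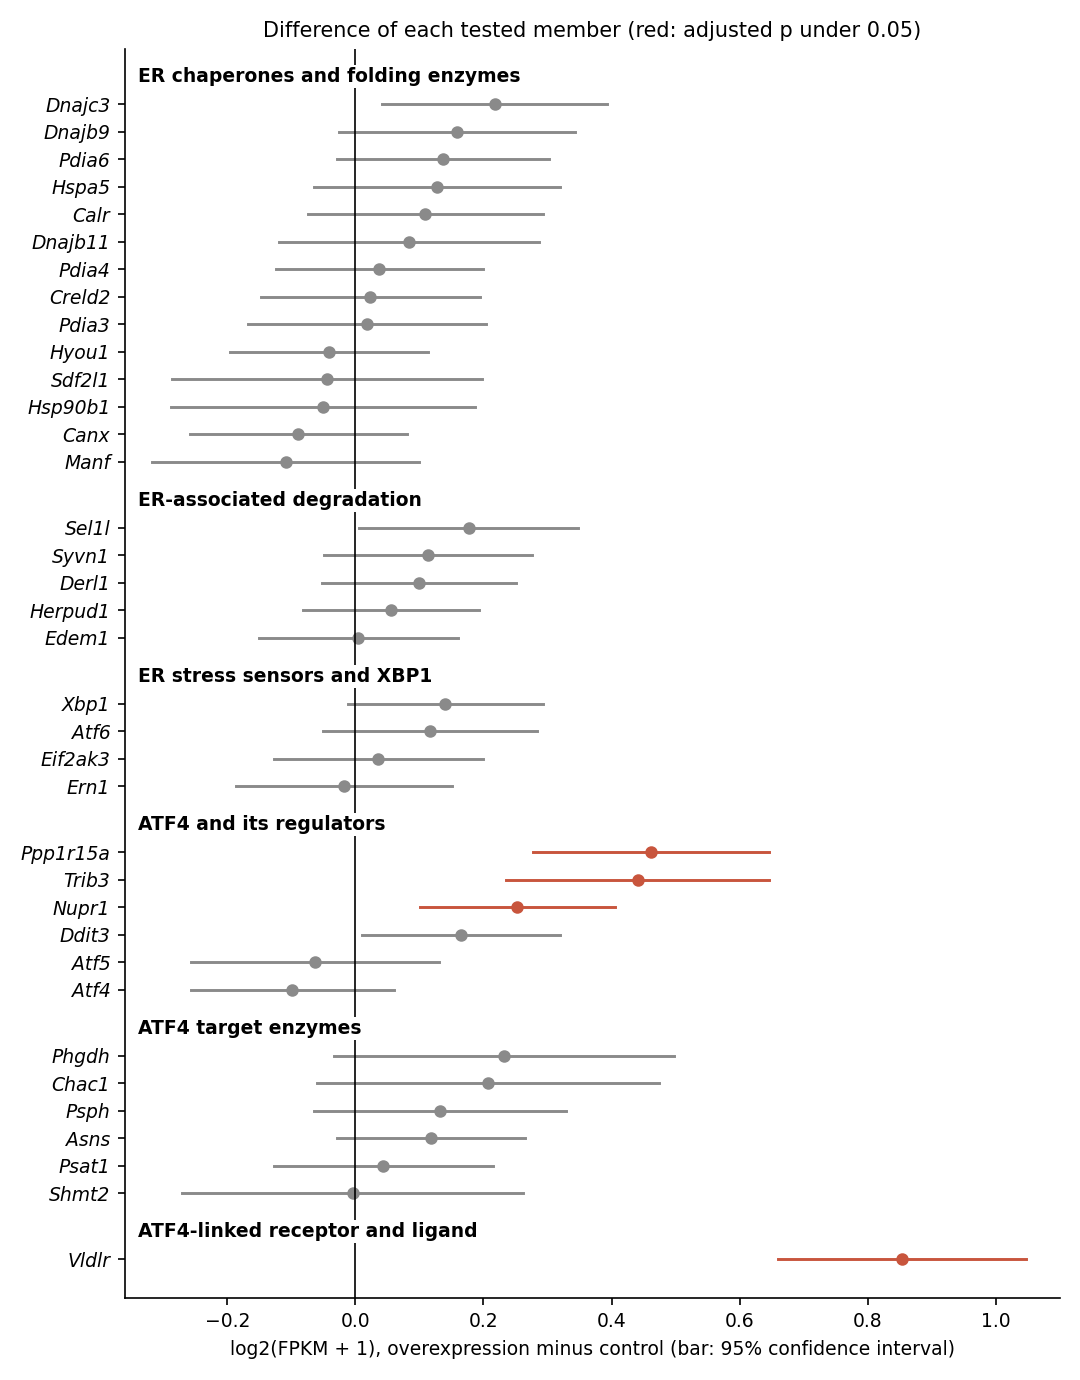
Log2 difference, overexpression minus control on log2(FPKM + 1), of each of the 36 tested genes with its 95% confidence interval from limma, grouped by role, red where the adjusted p was under 0.05. The ER genes lie between -0.11 and 0.22 with intervals that hold 0 except for those of Dnajc3 and Sel1l, and the 4 called genes, led by Vldlr at 0.85, lie on the ATF4 side.

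Other criteria were read against their own backgrounds. At an unadjusted p under 0.05, limma picked 7 of the 36 genes (19.4%), against 25.6% of all genes. Voom on read counts recovered from the FPKM values called 3 of the 36, Vldlr, Ppp1r15a and Trib3, where it called 14.7% of its 13091 genes. The adjusted p of the authors' deposited table was under 0.05 for 4 of the 36, against 14.9% of all genes tested. In 11 of the 36 genes (30.6%) each overexpression library lay above each control library, which held for 14.7% of all genes. The opposite order, found in 16.1% of all genes, was found in none of the 36.

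The Hsd11b1 transcript was at 1.90, 0.404 and 0.275 FPKM in the control libraries and at 323, 315 and 345 FPKM in the overexpression libraries, as the labels have it. The difference was 7.57 on the log2 scale (SE 0.27, limma adjusted p = 1.86e-06). The recovered reads of the listed genes summed to 16654042 to 61142764 per library. In each library that sum exceeded the recovered library total (16264247 to 58665346), for a reason that was not tested, so the counts are approximate. Control replicate 2 and overexpression replicate 3 were the deepest. In those 2 libraries GC-rich genes stood above their group mean (Spearman correlation over genes of a gene's deviation with its GC content 0.53 and 0.67), and in control 1 and overexpression 1 and 2 below it (-0.555, -0.444 and -0.447). Of 10 pre-osteoblast markers 8 were listed, while Alpl and Bglap had no values here. Their summed levels were 3081 to 3403 FPKM in control and 3009 to 3117 FPKM in overexpression libraries, a sum that hides opposite shifts. Runx2, Dlx5 and Sparc were higher in each overexpression library than in each control. Their means were 12.1, 12.4 and 498 FPKM in control and 14.6, 15.9 and 624 FPKM in overexpression libraries. Spp1 was lower in each (means 1251 and 1142 FPKM), and Col1a1, Col1a2, Twist1 and Sp7 overlapped. Of all genes tested, 14.7% lay apart upward and 16.1% downward. Of 5 macrophage markers 3 were listed, without Ptprc and Adgre1, at 11.9 to 13.4 and 11.5 to 12.7 FPKM in sum. In 3 small lists the summed level did not overlap between the groups. The 1 of 3 adipocyte markers listed, Fabp4, was at 0.101 to 0.159 and 1.14 to 1.36 FPKM, and the 1 of 3 endothelial markers listed, Pecam1, at 0.138 to 0.145 and 0.211 to 0.232 FPKM. Of the 3 chondrocyte markers 2 were listed, with sums of 22.3 to 24.3 and 27.3 to 30.9 FPKM, in which Sox9 had means of 18.7 and 24.5 FPKM and Col2a1 overlapping values with means of 4.63 and 4.26 FPKM. Their part in the results was not tested. The 1 skeletal muscle marker listed of 3 stayed at or below 0.625 FPKM. In bulk RNA fewer cells of a kind and less RNA per cell cannot be told apart. Nothing in the labels says that the replicates are separate cultures, so the p-values measure the spread between these libraries, which may be technical.

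The ER genes are known for a promoter element, the ER stress response element (ERSE), made of CCAAT, 9 free bases and CCACG, which NF-Y and ATF6 bind and which was defined on several of these same genes. RefSeq promoter sequences (GRCm38.p6, 250 bases before to 50 after the start) were matched by symbol for 35 of the 40 genes, and both strands were searched. The ERSE letters occurred in 9 of the 20 ER genes with a promoter sequence and in 0 of the 15 ATF4-side genes, against 0.137% of all genes in the table. A further pair of ER genes, Herpud1 and Dnajb11, held ERSE-II (ATTGG, 1 free base, CCACG), found in 0.0444% of all genes. The XBP1 motif TGACGTGG was in none of the 35 and in 0.714% of all genes, too rare for its absence here to say much. The promoter of Hspa5, which encodes the master chaperone BiP, is shown whole, and the element with 10 bases on each side for 5 further genes. Capitals mark the matched letters with their free bases, a position is that of the first base of the match relative to the start, and a match that begins CGTGG lies on the opposite strand.
Hspa5, chr2:34771840-34772139, plus strand, match at -65: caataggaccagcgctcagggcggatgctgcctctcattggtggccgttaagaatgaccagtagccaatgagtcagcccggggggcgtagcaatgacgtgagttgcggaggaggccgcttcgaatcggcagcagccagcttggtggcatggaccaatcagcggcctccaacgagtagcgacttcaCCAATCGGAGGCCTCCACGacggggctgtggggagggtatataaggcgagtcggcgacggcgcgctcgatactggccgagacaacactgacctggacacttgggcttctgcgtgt
Hsp90b1, upstream match at -212: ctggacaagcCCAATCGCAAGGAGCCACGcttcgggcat
Hsp90b1, downstream match at -107: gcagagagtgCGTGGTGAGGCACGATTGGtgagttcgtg
Calr, match at -162: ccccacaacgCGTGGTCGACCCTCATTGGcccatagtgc
Dnajc3, match at -105: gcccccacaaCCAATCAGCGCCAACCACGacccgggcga
Pdia6, match at -98: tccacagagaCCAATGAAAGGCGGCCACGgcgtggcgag
Herpud1, ERSE-II match at -52: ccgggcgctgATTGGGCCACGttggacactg

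The 14 ER chaperones and folding enzymes carried most of the RNA, with levels that summed to 1289 FPKM in control and 1321 FPKM in overexpression libraries on average. None passed the test, against 12.1% of all genes, and no call among so few genes says little. At an unadjusted p under 0.05 limma picked 1 of the 14, against 25.6% of all genes, and voom called 0, against 14.7%. Of the differences 9 were positive and 5 negative, and the median log2 difference was 0.03. Hspa5 was at 159, 144 and 130 FPKM in control and 160, 157 and 156 FPKM in overexpression libraries, where the highest control lay among the overexpression values. Its log2 difference was 0.13 (SE 0.08, 95% interval -0.06 to 0.32, limma adjusted p = 0.402). Calr, the soluble lectin chaperone of glycoproteins, was at 307, 290 and 265 against 299, 318 and 311 FPKM, and the groups overlapped (0.11, interval -0.07 to 0.29). Hsp90b1, the ER member of the HSP90 family, was at 278, 230 and 228 against 247, 251 and 212 FPKM, with the highest and the lowest value in different groups. Its difference was -0.05 (interval -0.29 to 0.19). These 3 promoters hold the ERSE shown above, and these 3 intervals leave out a change of 0.5 on the log2 scale in either direction. That is more than the differences called for Ppp1r15a, Trib3 and Nupr1 (0.46, 0.44 and 0.25). The intervals of Hspa5 and Calr hold a rise of the size of that of Nupr1, so smaller changes are not excluded.

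Among the other chaperones, Dnajc3 came nearest to a call. It encodes P58IPK, a co-chaperone of BiP that also inhibits PERK, and it was at 21.4, 19.2 and 18.7 FPKM in control and 24.1, 23.8 and 21.5 FPKM in overexpression libraries. The groups did not overlap, though the lowest overexpression value lay close to the highest control. Its log2 difference was 0.22 (SE 0.08, limma adjusted p = 0.113). Dnajb9, a co-chaperone of BiP that holds IRE1 inactive, was at 4.37, 4.45 and 4.44 against 5.19, 5.51 and 4.49 FPKM, a spread set by overexpression replicate 3, which sat just above the controls (0.16, limma adjusted p = 0.262). Pdia6, a disulfide isomerase, differed by 0.14 (adjusted p = 0.284) and its relatives Pdia3 and Pdia4 by 0.02 and 0.04. Canx, the membrane-bound partner of calreticulin, had a difference of -0.09, Hyou1, a nucleotide exchange factor for BiP, one of -0.04, and Manf, a secreted ER stress protein, one of -0.11. Sdf2l1, Creld2 and Dnajb11 lay between -0.04 and 0.08.

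None of the 5 tested ERAD genes passed the test, against 12.1% of all genes, and no call among so few genes says little. All 5 differences were above 0, as were 46.7% of those of all genes, and their median was 0.10. Derl1, a membrane protein of the export channel, was at 31.7, 34.9 and 32.0 against 36.6, 34.1 and 35.2 FPKM. Herpud1, a scaffold of the ubiquitin ligase complex and a common marker of ER stress, was at 25.2, 26.3 and 27.0 against 26.9, 27.2 and 27.7 FPKM. Both overlapped between the groups, and the difference of Herpud1 was 0.06 (interval -0.08 to 0.19). Sel1l, the adaptor of that ligase, was at 17.7, 15.4 and 17.2 against 19.99, 19.2 and 18.0 FPKM. Its groups did not overlap, and its difference of 0.18 did not pass (SE 0.08, limma adjusted p = 0.182). Syvn1, the ligase itself, was at 16.1, 18.6 and 18.0 against 18.5, 19.1 and 19.6 FPKM (0.11), and Edem1, a mannosidase-like lectin, differed by 0.00.

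The 4 sensor and signalling genes gave no call, against 12.1% of all genes, with a median difference of 0.08. Here too, no call among so few genes says little. Xbp1 was at 24.2, 24.1 and 22.7 FPKM in control and 27.6, 26.2 and 24.8 FPKM in overexpression libraries, without overlap. The difference was 0.14 (SE 0.07, limma adjusted p = 0.232). Gene levels do not separate spliced from unspliced Xbp1 mRNA, so IRE1 activity was not measured. Atf6 was at 10.8, 9.58 and 11.2 against 11.7, 11.5 and 11.2 FPKM, where control 3 and overexpression 3 nearly met (0.12, adjusted p = 0.377). Ern1, which encodes IRE1, and Eif2ak3, which encodes PERK, differed by -0.02 and 0.04.

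**Figure D2:**
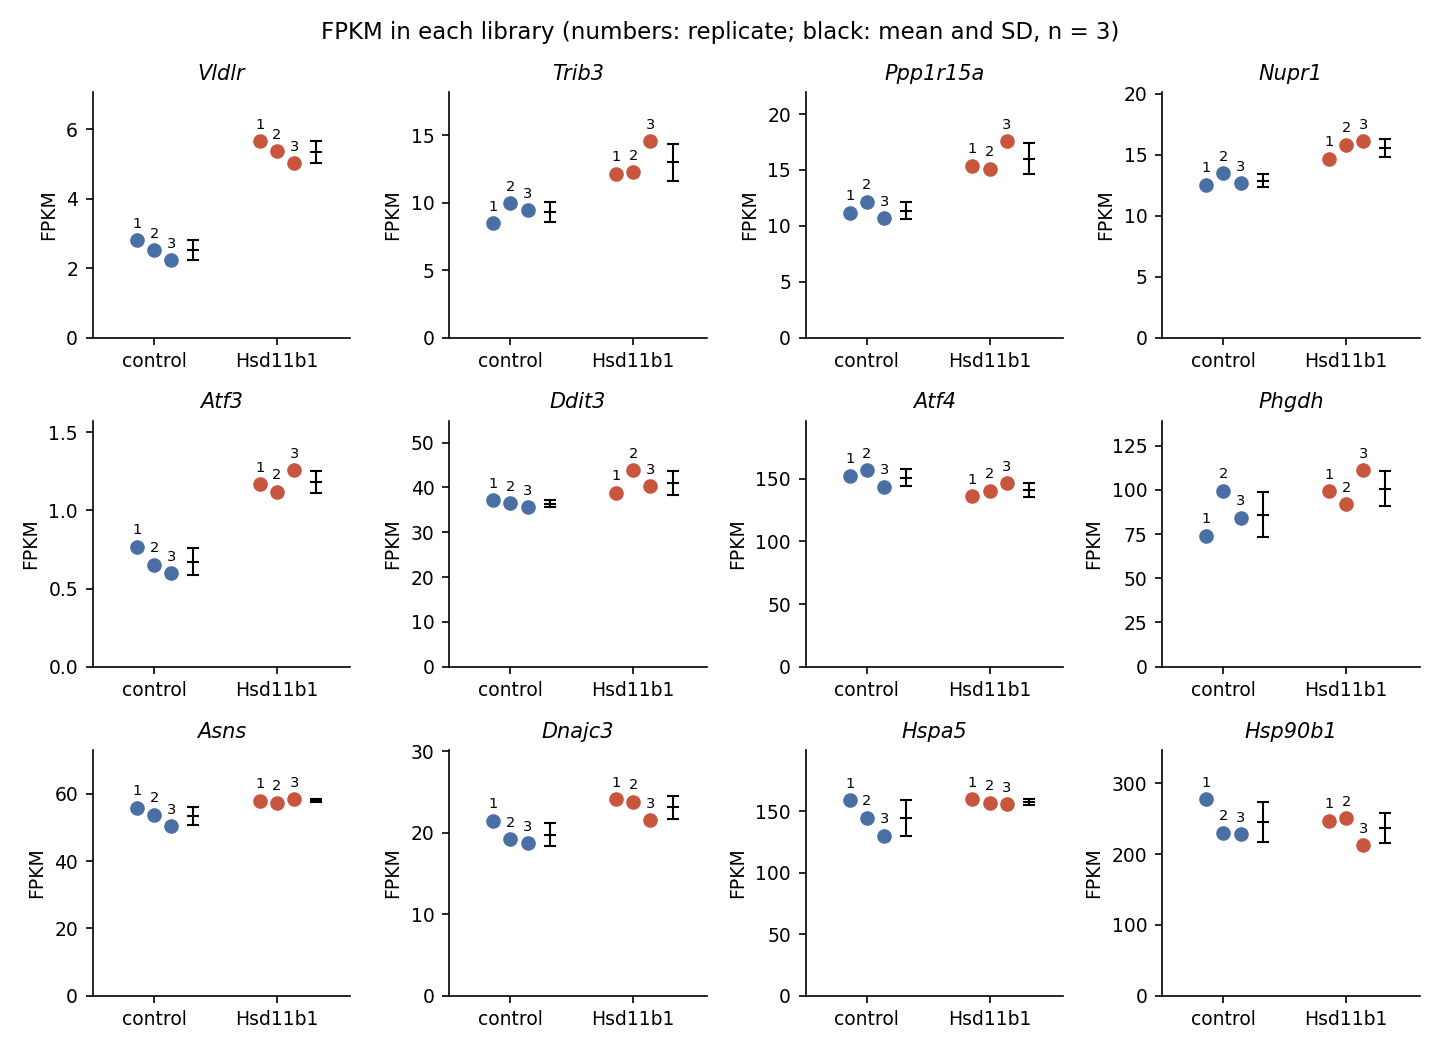
FPKM in each control and Hsd11b1 overexpression library (points numbered by replicate, with the group mean and SD in black, n = 3 per group) for 12 members named in the text, each panel with its own axis from 0. The groups overlap for Hspa5, Hsp90b1, Atf4 and Phgdh, while Vldlr, Ppp1r15a and Trib3 show a gap between them.

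On the ATF4 side the counterpart of the ERSE is the C/EBP-ATF response element (CARE), to which ATF4 binds with a C/EBP partner. The core searched was TGATGNAA on both strands. It occurred in the promoter of 7 of the 35 genes, 6 of the 15 on the ATF4 side and 1 of the 20 ER genes (Herpud1), against 4.51% of all genes. The ATF4-side genes were listed as ATF4, its partners and its targets, so that excess is no independent evidence. The full glucocorticoid receptor palindrome (AGAACA, 3 free bases, TGTTCT) was in none of the 35 promoters and in 0.0111% of all genes. With matches in only 3 of 27025 genes, its absence from 35 says nothing about receptor binding. Of the 4 called genes Vldlr, Trib3 and Nupr1 held the core. For Ppp1r15a these letters were not in the window searched. Asns, Chac1 and Herpud1 held it and were not called. The promoters of the 3 called genes that hold the core are shown whole, and 3 further matches with 10 bases on each side. For Vldlr the sequence is the downstream one of the 2 starts in the table.
Vldlr, chr19:27216770-27217069, plus strand, match at -200: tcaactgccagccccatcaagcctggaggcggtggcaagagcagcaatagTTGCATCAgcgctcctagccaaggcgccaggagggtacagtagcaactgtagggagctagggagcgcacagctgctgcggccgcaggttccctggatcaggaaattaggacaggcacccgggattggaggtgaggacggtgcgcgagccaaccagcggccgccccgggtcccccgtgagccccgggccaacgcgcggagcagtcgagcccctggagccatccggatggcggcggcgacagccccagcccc
Trib3, chr2:152344011-152344310, minus strand, match at 15: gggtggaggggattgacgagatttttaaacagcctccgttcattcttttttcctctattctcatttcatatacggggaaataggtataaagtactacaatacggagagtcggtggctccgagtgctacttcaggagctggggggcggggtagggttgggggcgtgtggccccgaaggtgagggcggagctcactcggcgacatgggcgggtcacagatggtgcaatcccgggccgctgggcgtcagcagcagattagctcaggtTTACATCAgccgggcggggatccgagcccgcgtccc
Nupr1, chr7:126625421-126625720, minus strand, match at -110: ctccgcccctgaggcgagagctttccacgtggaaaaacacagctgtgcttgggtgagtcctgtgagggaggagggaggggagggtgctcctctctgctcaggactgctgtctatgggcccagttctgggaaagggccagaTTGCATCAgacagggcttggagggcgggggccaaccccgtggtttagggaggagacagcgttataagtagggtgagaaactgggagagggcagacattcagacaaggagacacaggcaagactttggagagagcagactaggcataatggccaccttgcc
Atf3, match at -110: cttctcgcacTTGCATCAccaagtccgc
Chac1, match at -193: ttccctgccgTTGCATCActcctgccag
Asns, match at -23: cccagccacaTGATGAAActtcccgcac

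Atf4 mRNA itself did not pass the test. It was at 152, 157 and 144 FPKM in control and 136, 140 and 147 FPKM in overexpression libraries, and the 2 groups overlapped. The difference was -0.10 on the log2 scale (SE 0.07, interval -0.26 to 0.06, limma adjusted p = 0.437). ATF4 is set largely by translation, which RNA levels do not show. Atf5, a relative under the same translational control, was at 87.5, 94.6 and 85.0 against 85.8, 77.2 and 93.1 FPKM, with the lowest and the next to highest value both in overexpression libraries (-0.06, limma adjusted p = 0.71).

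The 3 called regulators act as brakes or stress co-factors downstream. Ppp1r15a encodes GADD34, which directs a phosphatase to eIF2alpha and restores translation. It was at 11.2, 12.2 and 10.7 FPKM in control and 15.4, 15.1 and 17.6 FPKM in overexpression libraries, with a clear gap between the groups. It rose by 0.46 on the log2 scale (SE 0.08, limma adjusted p = 0.0072), from 11.3 ± 0.751 to 16.0 ± 1.35 FPKM (SD, n = 3). Trib3, a pseudokinase that binds and restrains ATF4 and CHOP, was at 8.50, 9.96 and 9.46 against 12.2, 12.3 and 14.6 FPKM. Each overexpression library stood above each control, and the rise was 0.44 (SE 0.09, limma adjusted p = 0.0148). Nupr1, a small stress-induced chromatin protein, was at 12.5, 13.5 and 12.6 against 14.7, 15.8 and 16.1 FPKM. It rose by 0.25 (SE 0.07, limma adjusted p = 0.0425), a call that ended with each library left out in turn (adjusted p 0.051 to 0.16).

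Ddit3, which encodes the pro-apoptotic factor CHOP, was at 37.1, 36.4 and 35.6 FPKM in control and 38.8, 43.8 and 40.2 FPKM in overexpression libraries. The groups did not overlap, but the difference of 0.16 did not pass (SE 0.07, limma adjusted p = 0.168). Atf3, a stress-induced factor of the ATF family, lay under the filter at 0.769, 0.651 and 0.599 against 1.17, 1.12 and 1.26 FPKM, which stood for 33, 49 and 21 reads against 46, 45 and 159. Its means were 0.673 ± 0.0867 and 1.18 ± 0.0703 FPKM (SD, n = 3), without overlap. In the fit without a filter Atf3 had a difference of 0.38 and an adjusted p of 0.0087, while the authors' deposited table gave 0.82 with an adjusted p of 0.0566. The log2(FPKM + 1) scale understates changes at such low levels.

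None of the 6 tested amino acid enzymes passed, against 12.1% of all genes, and no call among so few genes says little. At an unadjusted p under 0.05 limma picked 0, against 25.6% of all genes, and voom called 0, against 14.7%. Their median difference was 0.12. Asns, which makes asparagine and is a standard ATF4 target, was at 55.9, 53.7 and 50.4 FPKM in control and 58.0, 57.4 and 58.4 FPKM in overexpression libraries. The groups did not overlap, yet the difference was 0.12 (SE 0.06, limma adjusted p = 0.299). Phgdh, the entry enzyme of serine synthesis, was at 74.2, 99.7 and 84.2 against 99.2, 91.9 and 111 FPKM, high in control 2 and overexpression 3 (0.23, interval -0.03 to 0.50, adjusted p = 0.258). Shmt2, which passes serine carbon into mitochondrial folate, was at 72.4, 93.9 and 81.5 against 79.2, 74.0 and 93.7 FPKM, again high in those 2 libraries. Its difference was 0.00 (interval -0.27 to 0.26). Psat1 and Psph, the later steps of serine synthesis, differed by 0.04 and 0.13, and Chac1, which degrades glutathione, by 0.21 (SE 0.12, adjusted p = 0.319). Without control 2, where Chac1 stood at 9.14 FPKM against 6.59 and 6.76 FPKM in the others, it differed by 0.34 with an adjusted p of 0.0436. That was the only call of Chac1 in 19 alternatives. With other libraries left out its difference was as low as 0.13, and its limma adjusted p reached 0.581. Cth, of cysteine synthesis, was under the filter with 0.126, 0.256 and 0.220 against 0.372, 0.403 and 0.2504 FPKM, from 7, 25 and 10 reads and 19, 21 and 41 reads.

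The largest difference of the 36 genes was that of Vldlr, the very low density lipoprotein receptor and a known ATF4 target. It was at 2.80, 2.52 and 2.23 FPKM in control and 5.65, 5.37 and 5.02 FPKM in overexpression libraries, from 561, 887 and 365 reads and 1041, 1008 and 2964 reads. The lowest overexpression value was well above the highest control. The rise was 0.85 on the log2(FPKM + 1) scale (SE 0.08, limma adjusted p = 0.000497), and the ratio of the mean FPKM values, 2.52 ± 0.283 and 5.35 ± 0.318 (SD, n = 3), was 2.13. The authors' deposited table gave a log2 fold change of 1.08. Gdf15, a secreted stress hormone, was under the filter at 0.623, 0.881 and 0.432 against 0.827, 0.984 and 1.02 FPKM. Its groups overlapped, and 13 to 57 reads in control and 28 to 111 reads in overexpression libraries lay behind those values.

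Libraries of the same group also differed among themselves. Overexpression 3 was the highest of its group for 11 of the 13 tested ATF4 genes, among them all 6 enzymes, as it was for 5396 of all 13120 genes. Control 2 was the highest control for 8 of the 13, as for 4875 of all genes. By contrast, control 1 was the highest control for 13 of the 23, including 9 of the 14 chaperones, as for 4769 of all genes. These genes differ in GC content, with a median of 55.5% for the ATF4 genes, 49.3% for the ER genes and 49.7% for all genes. Control 2 and overexpression 3 are the libraries in which GC-rich genes stood high, and the cause of the order among libraries was not tested. Vldlr, at 43.8% GC, was highest in control 1 and overexpression 1. With a GC correction of each library limma called 7 of the 36 genes, the same 4 with Dnajc3, Ddit3 and Dnajb9 (adjusted p 0.00709, 0.0442 and 0.0395). Those 7 are 19.4% of the members, and that fit called 18.7% of all genes, so the share is near the background there too.

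**Figure D3:**
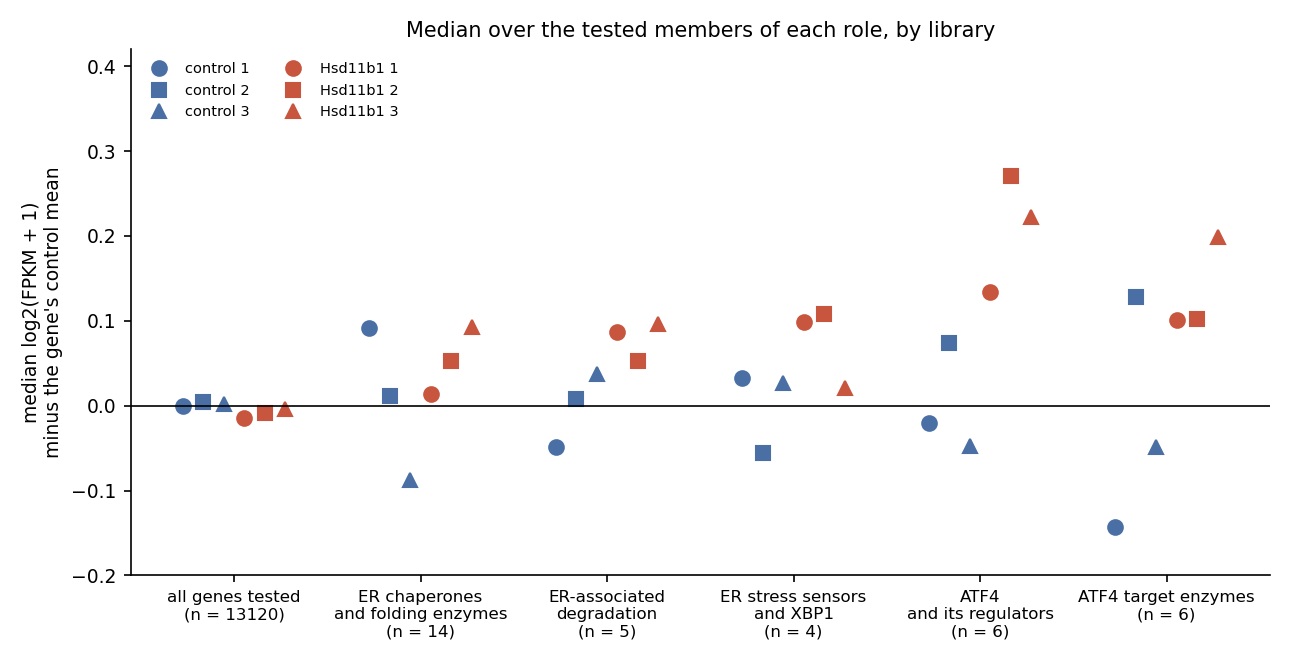
Median over the genes of each role of the difference from the control mean, on log2(FPKM + 1), in each of the 6 libraries. The chaperone medians run from -0.09 to 0.09 with the groups overlapping, and the groups also overlap for the stress sensors and the ATF4 target enzymes. The ATF4 regulators lie apart, at -0.05 to 0.07 in control and 0.13 to 0.27 in overexpression libraries. So do the ERAD genes, at -0.05 to 0.04 in control and 0.05 to 0.10 in overexpression libraries.

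A wider set of 155 genes of the same and neighbouring pathways, none of them a member, gave 16 higher and 2 lower calls among 147 tested. That is 12.2% called, near the 12.1% of all genes, with 10.9% higher and 1.36% lower against 6.22% and 5.84% of all genes. All these lists, those of the next paragraphs included, were chosen with earlier results of these data known. A list share above that of all genes is therefore no evidence of enrichment. Transporters of amino acids linked to ATF4 gave 3 higher of 8 (37.5%, against 6.22% of all genes). They were Slc3a2 and Slc7a5, the heavy and light chains of the large neutral amino acid transporter, and Slc38a2, a carrier of small neutral amino acids. Slc3a2 rose from 106 ± 9.47 to 172 ± 3.21 FPKM (SD, n = 3 each), by 0.70 (limma adjusted p = 0.000964), and Slc7a5 from 42.2 ± 4.66 to 58.2 ± 3.23 FPKM, by 0.46 (limma adjusted p = 0.0128). Slc38a2 rose by 0.30 (limma adjusted p = 0.0272), but passed in only 1 of the 6 fits with a library left out, with an adjusted p of up to 0.117.

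Other transcription factors and brakes of the ATF4 programme gave 4 higher of 10 (40%, against 6.22% of all genes). Ddit4, an inhibitor of mTORC1 that glucocorticoids are known to induce, rose by 1.05 (77.2 ± 10.5 to 160 ± 15.3 FPKM, limma adjusted p = 0.000701). Cebpb, a C/EBP partner of ATF4, also rose by 1.05 (18.4 ± 3.56 to 39.1 ± 5.89 FPKM, limma adjusted p = 0.00251). Gadd45a, a growth arrest protein, rose by 0.73 (limma adjusted p = 0.00105), and Jdp2 by 0.30, the last in only 1 of the 6 fits with a library left out. Several of these genes answer to other signals than ATF4, and which signal acted was not tested. Among 13 further metabolic enzymes 1 rose, Hmox1 of haem breakdown (0.49, limma adjusted p = 0.00474), and 1 fell, Mthfd1l of mitochondrial folate metabolism (-0.42, limma adjusted p = 0.0053). None of the 13 genes of the tRNA synthetase list, in which the tRNA exporter gene Xpot was placed, passed, against 12.1% of all genes. At an unadjusted p under 0.05 limma picked 1, against 25.6% of all genes, and voom called 0, against 14.7%. The smallest limma adjusted p was that of Wars (0.17, adjusted p = 0.146).

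On the ER side, 1 of 31 further folding genes rose, P4hb, which encodes protein disulfide isomerase (394 ± 17.9 to 488 ± 11.5 FPKM, by 0.31, limma adjusted p = 0.0308). That call held in 1 of the 6 fits with a library left out (adjusted p up to 0.15). Further ERAD genes gave 4 higher of 18 (22.2%, against 6.22% of all genes): Os9, a lectin that hands glycoproteins to SEL1L (0.37), Ube2g2, a ubiquitin-conjugating enzyme (0.56), Selenos, a selenoprotein of the export complex (0.35), and Faf2, a UBX-domain protein that recruits the p97 ATPase (0.29). Their limma adjusted p-values were 0.0112, 0.0136, 0.017 and 0.0207. Each of the 4 was lost with at least 1 library left out. Os9 was lost without overexpression 2 (0.0613), Ube2g2 without overexpression 1 (0.0533), and Selenos and Faf2 reached adjusted p-values of 0.074 and 0.103 with a library left out. Of 14 further signalling genes 1 rose, Creb3l1, an ER-anchored factor of collagen-secreting cells (0.27, limma adjusted p = 0.0486), in 0 of the 6 fits with a library left out. The 14 genes of eIF2alpha, its kinases and phosphatases, its exchange factor and its regulators gave no call, against 12.1% of all genes. At an unadjusted p under 0.05 limma picked 1 of them, against 25.6% of all genes, and voom called 0, against 14.7%. The smallest adjusted p there was that of Eif2b2, a subunit of the exchange factor eIF2B (0.21, adjusted p = 0.185).

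Of 15 cytosolic heat shock genes 3 were called (20%, against 12.1% of all genes). Hspb1 and Hspa1b rose, by 0.75 and 0.48 (limma adjusted p = 0.0078 and 0.0315), and Dnajb1, a co-chaperone, fell by 0.29 (limma adjusted p = 0.0491), with a list median of -0.08. Hspb1 stood at 0.751 FPKM on average in control and 1.93 FPKM in overexpression libraries, so it passed the filter through the higher group. Its call was lost without the deepest library of each group (adjusted p = 0.065). Hspa1b shares reads with the near-identical Hspa1a, which had no value here, and its level is uncertain. The Hspa1b and Dnajb1 calls reached adjusted p-values of 0.0887 and 0.173 with a library left out. Of 11 mitochondrial stress genes none passed, against 12.1% of all genes. At an unadjusted p under 0.05 limma picked 1, against 25.6% of all genes, and voom called 1 lower, against 14.7% called in either direction. The smallest limma adjusted p was that of Hspa14, a ribosome-associated chaperone placed in that list (-0.24, adjusted p = 0.0684).

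**Figure D4:**
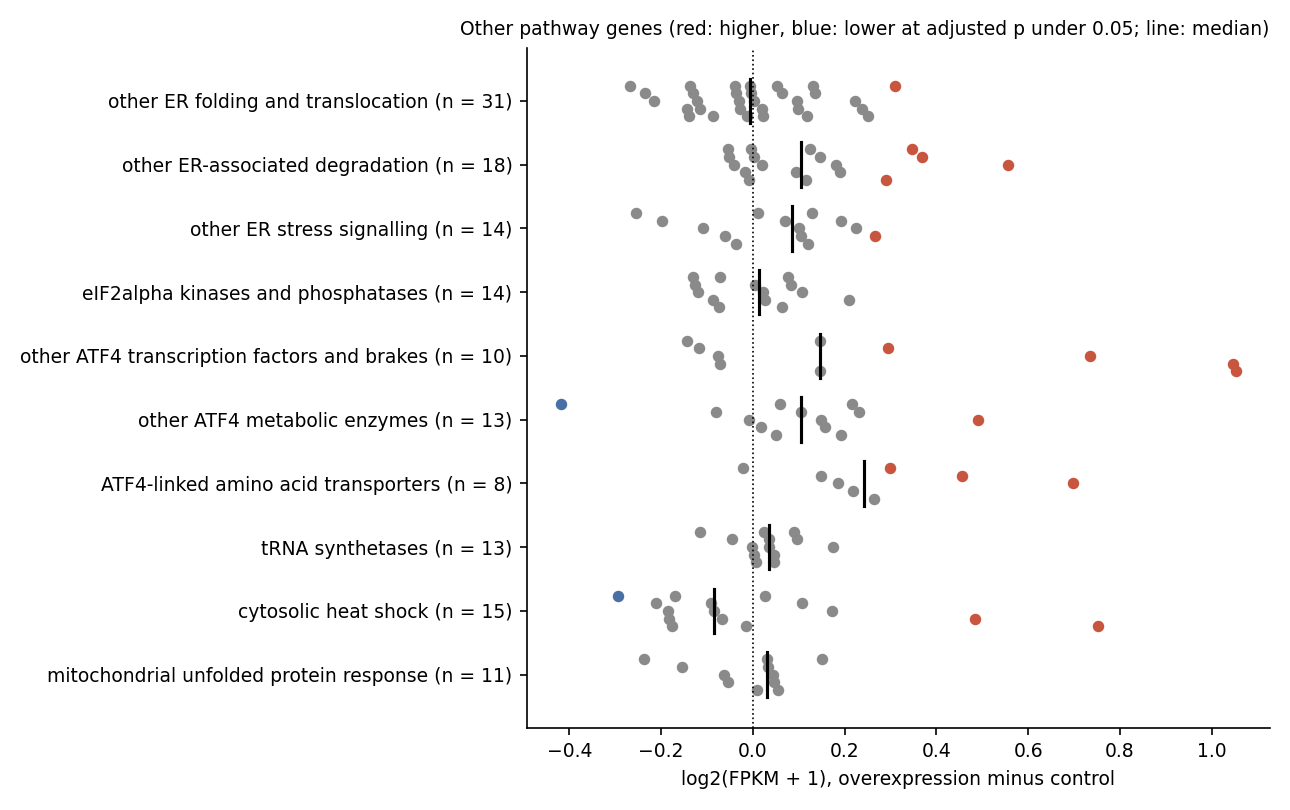
Log2 difference, overexpression minus control on log2(FPKM + 1), of the 147 tested genes of neighbouring pathways, by list; red points were called higher and blue points lower (limma adjusted p below 0.05), and the vertical line is the list median. The amino acid transporters have the highest median, 0.24, and the cytosolic heat shock genes the lowest, -0.08.

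Vldlr was called in each of the 18 alternatives in which it was tested, with a difference of 0.46 (pseudocount 5, which understates the change of low genes) to 1.06, and Ppp1r15a and Trib3 in each of 19, with adjusted p-values of up to 0.0352 and 0.0481. Nupr1 was called in 9 of 19.

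**Figure D5:**
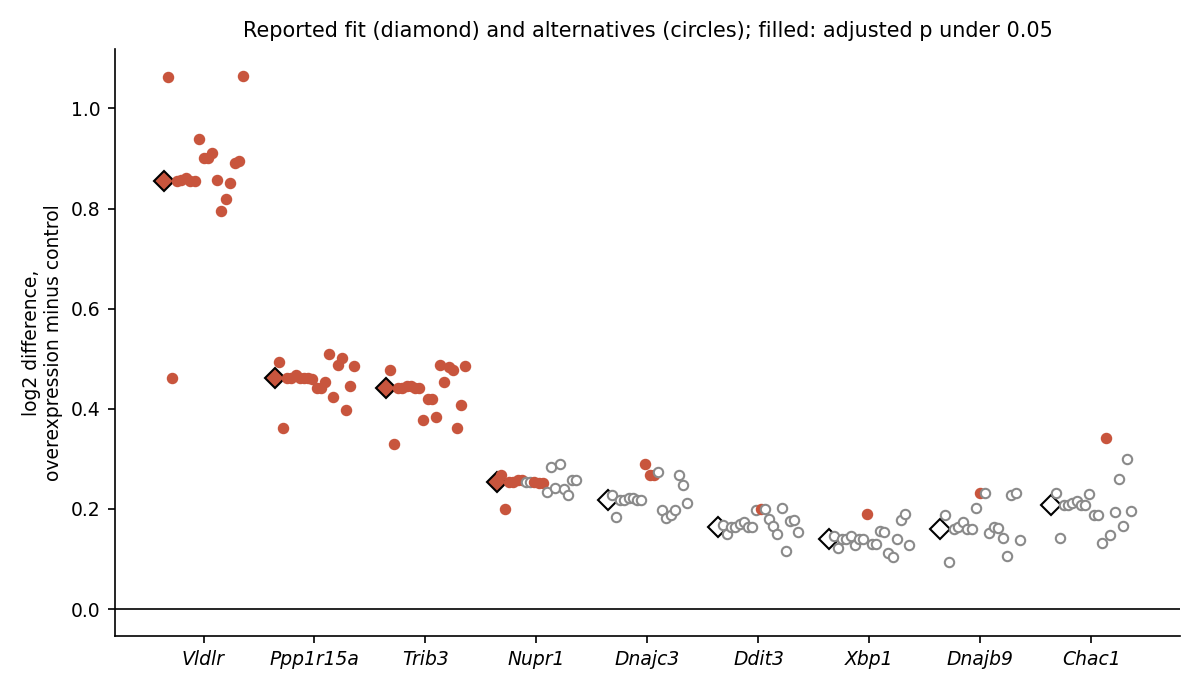
Log2 difference, overexpression minus control, of the 4 called genes and of 5 that an alternative called, in the reported fit (diamond) and under each alternative setting (circles), filled where the adjusted p was under 0.05. Vldlr, Ppp1r15a and Trib3 keep filled circles throughout, Nupr1 is filled in 9 of 19, and the other 5 genes in 3 at most.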

How the data were processed

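RNA was read from 3 control and 3 overexpression libraries. Per the labels' protocols, TRIzol gave total RNA, and a stranded kit for mRNA made the libraries. Per the submitters' processing notes, cutadapt 2.5, HISAT2 2.1.0, featureCounts 1.6.3 and mm10 were used, and those sources name no annotation, strand setting or differential test. Antisense and overlapping genes may therefore share reads. The deposited FPKM values, the authors' log2 fold changes and the authors' p-values stand in 1 table per gene, and fold changes and tests were recomputed here from the FPKM values.

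Genes with a mean of at least 1 FPKM were tested on log2(FPKM + 1), with a pseudocount of 1, by limma 3.58.1 (two-sided, with a trend, no covariate, Benjamini-Hochberg over 13120 genes, threshold 0.05). With 3 against 3 libraries an exact permutation test of a single value cannot go below p = 0.1, as for Hsd11b1 (p = 0.1). Reads were recovered as FPKM times the summed exon length of GENCODE M21 times the library total that made low values whole (93.7% to 94.9% of values up to 1000 reads within 0.05 of a whole read). The scripts were tested on simulated reads that lacked the GC and library effects seen here, so that test does not cover those effects. The members and all lists were chosen with earlier results of these data known. Named genes are the called ones and, per role, the 2 highest and the 2 with the smallest p, other members being given by difference. Library values of Hspa5, Ddit3, Chac1, Atf3, Cth and Gdf15, and the calls of Faf2 and Jdp2, are examples outside that rule, chosen after their values were seen. Alternatives were other pseudocounts, filters, scalings, weights, a GC correction, a replicate block, voom and each library left out.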

Additional observations from a re-analysis of the deposited data

How the results depend on the processing

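The 6 main quantities were the members called higher (4) and lower (0), the other pathway genes called higher (16) and lower (2), and the median differences of the chaperones and of the ATF4 genes. No called value changed sign under any alternative, and no member was called lower under any. Members called higher were 7 with the GC correction, 6 with array weights and 3 to 4 with a library left out. Other genes called higher were 29 with array weights, 29 with the GC correction, 10 without the deepest library of each group and 9 to 12 with a library left out. Other genes called lower were 1 with a pseudocount of 0.1, without a filter and without a trend, 5 with array weights, 7 with the GC correction, 4 by voom and 1 to 2 with a library left out. The chaperone median lay between -0.00 (without control 3) and 0.08. Over single genes, 173 of 3483 values changed sign, none of them past the threshold in either fit. Over all genes, array weights gave 1357 higher and 1403 lower calls against 816 and 766, the GC correction 1297 and 1159, and single libraries left out 483 to 719 and 412 to 618.

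Replicate numbers did not pair the libraries: deviations of same-numbered libraries correlated at 0.21, -0.29 and -0.03, and control 2 went with overexpression 3 (0.42). The replicate block left 3 members higher, 11 other genes higher and 1 lower, with 688 higher and 628 lower calls over all genes. With the GC correction added to the block these were 5, 19 and 3, with 918 higher and 802 lower calls over all genes. Nupr1 lost its call under the block, without a trend, by voom, without the deepest libraries and without each single library. Dnajc3 and Xbp1 gained one with array weights. Depth limits Atf3, Cth and Gdf15, which rest on 7 to 159 reads per library.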
